A study of Mus musculus with 2 samples.

Results

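The 33 genes described here are transcripts of the platelet lineage, given by name as a list of granule proteins, surface receptors, cytoskeletal proteins and signalling proteins of platelets and megakaryocytes. All 33 were present among the 31053 genes of the deposited count tables, and their UMIs (unique molecular identifiers, the counts of captured transcript molecules) were followed across all classes of barcodes with at least 200 genes and mitochondrial UMIs under 10%. Peripheral blood was compared between wild-type (wt) mice and db/db mice, which are homozygous for the db allele of the leptin receptor gene and are used as a model of obesity with type 2 diabetes. Both groups were male C57BLKs/J mice, 21 weeks old, with 3 mice and 200 µl of heparinised retro-orbital blood per group, and red cells were lysed before droplet capture. Each genotype was 1 library in which the mice could not be told apart, so there were no replicates. All intervals below are 95% counting intervals that cover counting error only, no test between genotypes was possible, and an effect of genotype cannot be told apart from a difference between the 2 libraries. Pairs of values below are given as wt, then db/db.

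Platelets are cell fragments without a nucleus that are shed by megakaryocytes and carry RNA from them. On contact with damaged vessel walls they bind collagen and von Willebrand factor through surface glycoproteins, release their granules and aggregate through the integrin αIIbβ3. In blood samples they also attach to leukocytes, and a droplet can hold a platelet beside another cell or free RNA from lysed platelets.

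The promoters of 3 core members of the list are shown because the results below turn on their transcripts. Pf4 and Ppbp, which encode the granule chemokines platelet factor 4 and platelet basic protein, lie next to each other on chromosome 5 with 2371 bases between them (Ppbp 90768518 to 90770063, Pf4 90772435 to 90773383, GENCODE annotation of GRCm38). Gp9 encodes a subunit of the von Willebrand factor receptor. The 250 bases before each RefSeq start (build GRCm38.p6, plus strand in each case) are printed 5′ to 3′, for Pf4 chr5:90772185-90772434, for Ppbp chr5:90768268-90768517 and for Gp9 chr6:87777820-87778069. Capitals mark matches on either strand to AGGAAG, an ETS family motif, or TGTGGT, a RUNX family motif.
Pf4: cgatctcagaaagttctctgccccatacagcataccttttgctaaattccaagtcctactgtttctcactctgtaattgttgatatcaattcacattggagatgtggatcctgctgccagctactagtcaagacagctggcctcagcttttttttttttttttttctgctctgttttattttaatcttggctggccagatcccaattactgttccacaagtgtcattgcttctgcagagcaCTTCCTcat
Ppbp: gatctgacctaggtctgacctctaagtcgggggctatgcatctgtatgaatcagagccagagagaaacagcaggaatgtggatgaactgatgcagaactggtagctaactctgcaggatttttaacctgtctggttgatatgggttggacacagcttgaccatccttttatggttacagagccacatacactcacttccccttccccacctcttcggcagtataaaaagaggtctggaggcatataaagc
Gp9: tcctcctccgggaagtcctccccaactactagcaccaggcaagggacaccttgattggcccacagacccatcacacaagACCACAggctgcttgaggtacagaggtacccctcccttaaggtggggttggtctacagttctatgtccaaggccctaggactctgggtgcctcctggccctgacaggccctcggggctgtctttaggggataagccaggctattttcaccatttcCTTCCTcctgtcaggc
A RefSeq window was matched for 27 of the 33 members. AGGAAG was found in the windows of 12 of the 27 (44.4%), against 32.3% of the 27025 genes in the table. TGTGGT was found in 2 of the 27 (7.41%), against 15.9% of all genes. Binding sites of GATA factors often hold AGATAA, which was found in 4 of the 27 (14.8%), namely Gp5, Gp6, F2rl2 and Ctla2a, against 11.4% of all genes. The Pf4 window held 1 match, the Gp9 window 2 and the Ppbp window none. These matches describe letters and not binding.

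Kept barcodes numbered 5727 in the wt library and 6109 in the db/db library, with a median of 2562 and 2523 UMIs. In all, 91 barcode sequences were found in both libraries, 11 of them among the kept barcodes. Kept barcodes were clustered without the 33 members, and clusters were named from marker lists that held none of them. A further rule, added after the data were seen, did count the members. It took the name from a cluster whose 10 leading genes held more platelet genes, members included, than its own markers. A cluster of 374 barcodes had only members among its 10 leading genes, with Pf4 and Ppbp first, and 7 of the other platelet genes among its 50 leading genes. It met the naming rule for platelets, but its median of 664 UMIs was far below the library medians. Because members filled its top 10, no gene of the naming list, which left out all members, could stand there. It is called platelet-led for caution and not given a cell type name. This label does not say that the barcodes are not platelets. A cluster of 641 barcodes with a median haemoglobin share of 87.1% of UMIs also had 10 members as its 10 leading genes (Nrgn, Ctla2a and Tsc22d1 first) and is called platelet-led haemoglobin. It met the naming rule for red cells, with 10 erythroid markers among its 50 leading genes. It was set apart only by the rule that counted the members, so this class rests on the members themselves. The remaining barcodes were red cell-like, B cell-like, T cell-like, NK cell-like, monocyte-like or neutrophil-like, written below without the ending, apart from 395 wt and 37 db/db unnamed barcodes led by the RNA Gm42418 and 19 kidney proximal tubule-like barcodes in the db/db library. The red cell class included a cluster of 1549 barcodes with 12 B cell markers among its 50 leading genes. At least 2 detected markers from more than 1 leukocyte lineage were found in 24.5% of wt and 19.8% of db/db leukocyte barcodes, and no doublets were removed.

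Platelet-led barcodes numbered 100 in wt (1.75% of kept barcodes, 1.42 to 2.12) and 274 in db/db (4.49%, 3.98 to 5.04), or 2.57 times the wt value (2.04 to 3.26). Platelet-led haemoglobin barcodes numbered 125 (2.18%) and 516 (8.45%), a ratio of 3.87 (3.18 to 4.74). Both clusters were thus a larger share of the db/db library. With a minimum of 100 genes per barcode the platelet-led class took in haemoglobin-rich barcodes (87.8% haemoglobin in db/db) and the share ratio was 4.11.

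Member transcripts were present in every class. They took 13.6% of UMIs in platelet-led barcodes of wt and 15.3% in db/db, and 1.17% and 1.14% in platelet-led haemoglobin barcodes. In red cell barcodes the summed level of the members was 392 CPM (UMIs per 1000000 UMIs of the class) in wt against 993 CPM in db/db. In B cells it was 886 and 2072 CPM, in T cells 737 and 1925 CPM, and in NK cells 1897 and 2076 CPM. Monocytes had 2945 and 2220 CPM, and neutrophils had 5918 and 5022 CPM. Red cell, B cell and T cell levels were thus higher in the db/db library, monocyte and neutrophil levels were lower, and the NK cell intervals overlapped. Over all barcodes of a library, kept or not, members took 0.0881% of UMIs in wt and 0.203% in db/db. Whether the class levels differed beyond this library-wide share was not tested. Of all member UMIs in kept barcodes, platelet-led barcodes held 36.2% in wt and 37.9% in db/db, and leukocytes held 35.7% and 25.2%.

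**Figure D1:**
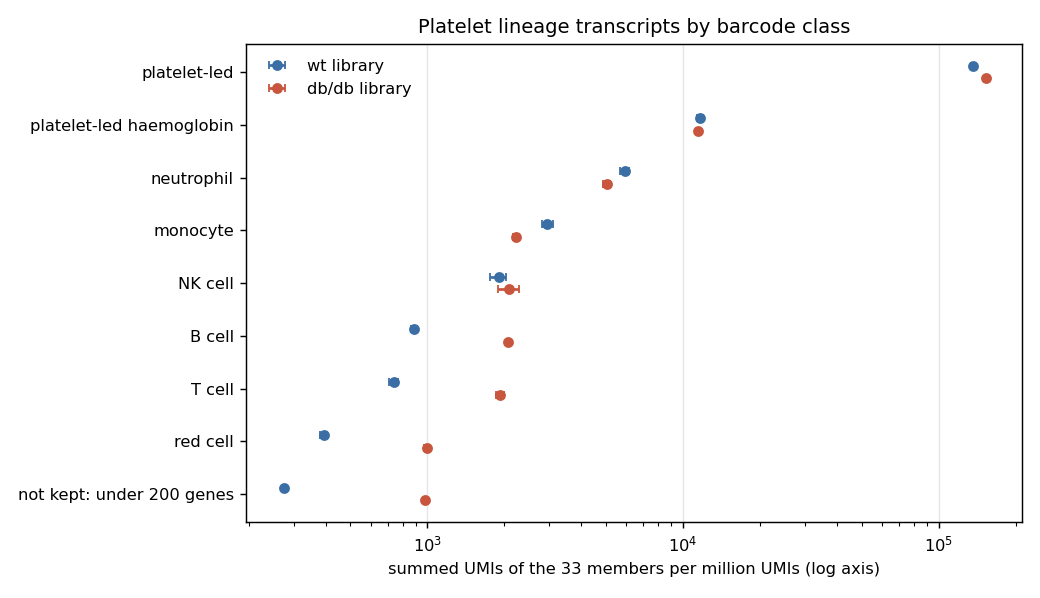
Summed UMIs of the 33 members per 1000000 UMIs (log axis) in each barcode class, with 1 point per library and exact Poisson 95% intervals. Platelet-led barcodes lie at 13.6% (wt) and 15.3% (db/db) of UMIs, and the db/db point lies to the right of the wt point in red cell, B cell and T cell barcodes.

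Within platelet-led barcodes, none of the 32 members with enough UMIs to be counted was past 2-fold between the libraries. A member counts below as past 2-fold where the db/db over wt ratio of its CPM is at least 2 or at most 0.5, its interval excludes 1 and the class holds at least 20 of its UMIs. Of the 32, 0 passed in either direction, against 2.18% of 1375 genes that passed as higher in db/db and 5.16% as lower. The members' median ratio was 1.10, and that of all genes was 0.96. Summed over members the ratio was 1.13 (1.10 to 1.15), but its direction was not stable, because it was below 1 under 6 other ways of selecting or grouping barcodes, between 0.696 and 0.953. The same holds for single members, since all 32 had ratios below 1 with a minimum of 100 or of 500 genes per barcode. The 3′ protocol counts molecules by their ends, so CPM of different genes are compared without division by gene length.

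Among the granule and adhesive proteins, Pf4 was the most abundant in platelet-led barcodes, with 15965 CPM in the wt library against 14540 CPM in db/db (ratio 0.91, 0.85 to 0.97). Ppbp followed with 9738 and 9203 CPM. Thbs1, thrombospondin 1 of the α-granules, had 5776 and 4737 CPM, a ratio of 0.82 (0.74 to 0.91). These 3 were close in the 2 libraries, and Pf4 was detected in all 100 wt and in 99.6% of db/db barcodes. Vwf, the adhesive protein von Willebrand factor, had 1234 and 1292 CPM. F5, coagulation factor V, had 1151 and 1292 CPM. Clu, the granule chaperone clusterin, stood higher in db/db, with 1364 CPM in the wt library (1126 to 1637) against 2064 CPM in db/db (1881 to 2261), or 1.51 times the wt value. Mmrn1, which encodes the factor V carrier multimerin 1, had 475 and 551 CPM. Selp, the P-selectin of granule membranes that leukocytes bind, was nearly absent, with 10 and 6 UMIs. F5 and Selp are neighbours on chromosome 1 with 1811 bases between them, and these neighbours differed more in level than Pf4 and Ppbp.

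The receptors covered a wide range. Cd9, a tetraspanin of the platelet surface, was the most abundant receptor, with 7271 CPM in the wt library against 10193 CPM in db/db (ratio 1.40, 1.28 to 1.54). Clec1b, the podoplanin receptor CLEC-2, had 6346 and 6495 CPM, with overlapping intervals. Gp9 had 3214 CPM in the wt library (2843 to 3621) against 4360 CPM in db/db (4091 to 4641), or 1.36 times the wt value. Its partners in the von Willebrand factor receptor were rarer, and their ratios had wider intervals. Gp5 had 1269 and 1585 CPM (ratio 1.25, 1.00 to 1.57), Gp1ba 522 and 373 CPM (0.71, 0.49 to 1.05) and Gp1bb 214 and 275 CPM (1.29, 0.75 to 2.32). Of the fibrinogen receptor chains, Itga2b, the αIIb chain, had 2847 and 2646 CPM (ratio 0.93, 0.80 to 1.08). Itgb3, the β3 chain, had 2372 CPM in the wt library (2055 to 2725) against 1589 CPM in db/db (1429 to 1763), or 0.67 times the wt value, the lowest in this group. Gp6, the collagen receptor, had 854 and 675 CPM, and Treml1, a receptor of granule membranes, had 2123 and 2433 CPM, both with ratios whose intervals held 1. F2rl2, the thrombin receptor PAR3, and Itgb5, an integrin β chain, lay at 475 and 462 CPM and at 249 and 395 CPM.

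Of the cytoskeletal members, Tubb2a had 4875 and 4506 CPM and Myl9, a myosin light chain, 2396 and 2584 CPM, both with intervals that held 1. Tubb1, the β1-tubulin of the platelet marginal band, had 724 CPM in the wt library (553 to 929) against 1088 CPM in db/db (956 to 1233), or 1.503 times the wt value. Ctla2a, a cysteine protease inhibitor, was the most abundant of all 33 in platelet-led barcodes, with 16831 CPM in the wt library against 22966 CPM in db/db (ratio 1.37, 1.29 to 1.45). It was detected in every platelet-led barcode of both libraries. Tsc22d1, a transcriptional regulator, had 10782 and 13337 CPM, Nrgn, a calmodulin-binding protein, 9418 and 12515 CPM, and Gng11, a G protein γ subunit, 8777 and 10127 CPM, with ratios of 1.24, 1.33 and 1.15. Ywhah, a 14-3-3 protein, and Rgs10, a regulator of G protein signalling, had 7307 and 9181 CPM and 2942 and 4329 CPM, with ratios of 1.26 and 1.47. These 6 had intervals above 1. Among the enzymes of arachidonic acid metabolism, Alox12, the 12-lipoxygenase, had 2918 and 2770 CPM (ratio 0.95, 0.82 to 1.11), and Ptgs1, cyclooxygenase 1, had 498 and 302 CPM (ratio 0.61, 0.41 to 0.91). Plek, a protein kinase C substrate, at 3404 and 3015 CPM, and Rgs18, another regulator of G protein signalling, at 1589 and 1336 CPM, had ratios of 0.89 and 0.84 with intervals that held 1. In all, 11 members had an interval above 1 and 4 an interval below 1 (Pf4, Thbs1, Itgb3 and Ptgs1). The share of all genes with such intervals was not counted, so these counts are not read as a trait of the members.

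**Figure D2:**
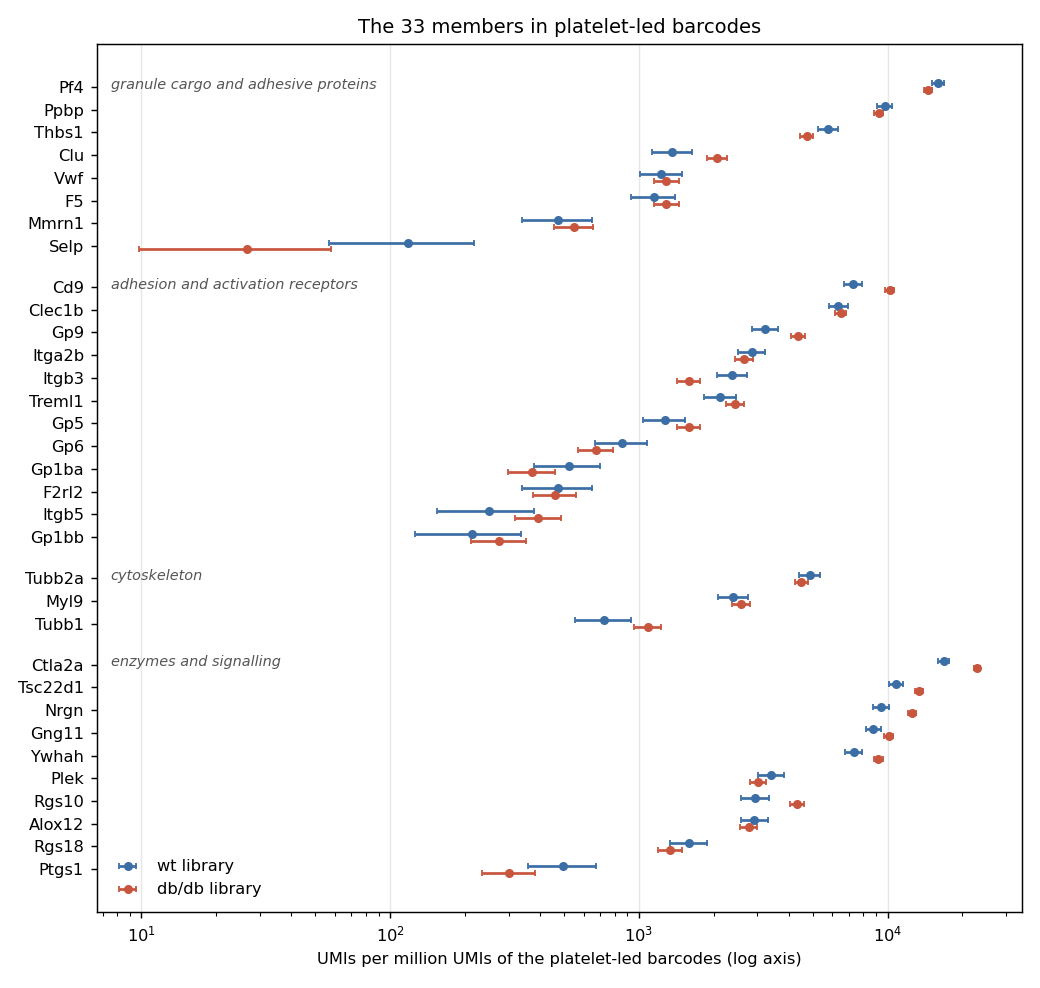
UMIs per 1000000 UMIs (log axis) of each of the 33 members in platelet-led barcodes, grouped by role, with 1 point per library and exact Poisson 95% intervals. Most points of the libraries lie close together, Ctla2a and Pf4 lie highest, and Selp, with 10 and 6 UMIs, lies lowest.

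Markers of other cells were also counted in the platelet-led barcodes. Of 13 erythroid markers, 12 were detected in wt and 13 in db/db, with a summed level of 93348 and 123014 CPM, and haemoglobin took 9.12% and 12.1% of UMIs. All 13 B cell markers had a UMI in wt and 11 in db/db, at a summed level of 1257 and 519 CPM. T cell markers summed to 142 and 155 CPM, with Cd3g, Trac, Trbc1 and Cd4 among those at 0 in both libraries. NK cell markers had 0 and 2 UMIs, and monocyte markers summed to 3772 and 3503 CPM with Csf1r, Ly6c2, Fn1, Ace and Adgre4 at 0 in both. Their part in the member ratios was not tested.

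In the platelet-led haemoglobin barcodes members took a smaller share of UMIs, beside haemoglobin at 83.4% and 86.9%. The summed ratio of db/db over wt was 0.98 (0.95 to 1.01). With haemoglobin left out of the denominator it was 1.25, a shift of 0.35 on the log2 scale for every gene of the class, so no direction can be given. Of 32 members with 20 UMIs, 0 passed 2-fold in either direction, against 2.15% of 1445 genes as higher and 9.41% as lower. The members' median ratio was 0.91 and that of all genes 0.92. Without haemoglobin in the denominator 2 members passed as higher, with mt- UMIs under 5% 1 passed as higher, and with mt- UMIs under 20% 1 passed as lower. Pf4 had 1132 and 1016 CPM there, Ctla2a 1695 and 1913 CPM, and Itgb3 185 and 120 CPM (ratio 0.65, 0.51 to 0.84). Thbs1 had 432 and 347 CPM (ratio 0.80, 0.69 to 0.94). Pf4, Itgb3 and Thbs1 had intervals below 1 in both platelet-led clusters with all UMIs in the denominator.

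In red cell barcodes the members were higher in db/db as a group. The summed ratio was 2.53 (2.43 to 2.64) and was between 2.24 and 3.49 in each of the 3 red cell clusters. Of the 28 members with 20 UMIs, 19 passed 2-fold as higher and 0 as lower, against 3.5% and 2.08% of 9025 genes. The members' median ratio was 2.53 and that of all genes 1.07. Pf4 had 29.7 and 77.4 CPM (ratio 2.60, 2.23 to 3.04). Gng11 had 29.2 and 86.7 CPM (2.97, 2.55 to 3.47), and Ctla2a 75.9 and 217 CPM (2.86, 2.60 to 3.14). Those that passed included 5 of 7 granule and adhesive proteins (Pf4, Ppbp, F5, Mmrn1 and Clu), 5 of 9 receptors and all 3 cytoskeletal members, Tubb1 on only 6 and 35 UMIs. Plek was least different, at 23.1 and 31.7 CPM (1.37, 1.13 to 1.67). Without the red cell cluster that has B cell markers the summed ratio was 2.37. The class left out the 641 platelet-led haemoglobin barcodes, which met the red cell naming rule and were set apart because members led them. The red cell levels thus rest in part on a selection by the members' own values. The red cell ratio with those barcodes returned was not computed. Leaving haemoglobin out of the denominator shifted every red cell ratio by -0.11 on the log2 scale, and leaving out mt- genes and Gm42418 as well by -0.25.

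B cells and T cells also had higher member levels in db/db. The summed ratio was 2.34 (2.26 to 2.42) in B cells and 2.61 (2.47 to 2.76) in T cells. In B cells, 22 of 32 members with 20 UMIs passed 2-fold as higher and 0 as lower, against 2.11% and 1.55% of 10212 genes. In T cells, 16 of 23 passed as higher and 0 as lower, against 1.69% and 1.48% of 8798 genes. The members' median ratios were 2.37 and 2.92, and those of all genes 0.98 in both. Pf4 had 69.2 CPM in wt B cells and 153 CPM in db/db B cells (ratio 2.21, 1.95 to 2.50), and 33.8 and 122 CPM in T cells (3.60, 2.80 to 4.67). Gp9 had 11.8 and 52.4 CPM in B cells (4.46, 3.38 to 5.96), the largest ratio of the members there. Clec1b had 7.43 and 40.6 CPM in T cells (5.46, 3.28 to 9.50), and Gng11 26.4 and 141 CPM (5.36, 4.10 to 7.10). A few members were not higher or differed less. Itgb3 had 20.1 and 19.2 CPM in B cells (0.96, 0.72 to 1.26) and 27.1 and 31.0 CPM in T cells (1.15, 0.79 to 1.66). Rgs18 had 26.2 and 20.1 CPM in B cells (0.77, 0.59 to 0.99). Plek and Ywhah had ratios of 1.28 and 1.36 in B cells, and Rgs10, at 192 and 255 CPM, a ratio of 1.33 in T cells. When the members were used for the clustering, 6 of 21 members with 20 UMIs passed as higher in B cells and 1 as lower. The summed ratio was 1.69. In that setting a cluster of 79 wt and 438 db/db barcodes was left unnamed and so was not counted as B cells. It was led by Nrgn, Ctla2a and Gng11 and had 12 B cell markers among its leading genes. The B cell ratio with these barcodes included was not tested in that setting.

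Within the B cells, 1 cluster stood apart. It held 149 wt and 515 db/db barcodes, was led by Igkc, Mzb1, Ly6a and Zbtb20, and had the highest member levels of any B cell cluster, 3965 and 4403 CPM. Its ratio was 1.11 (1.06 to 1.17), while the other 3 B cell clusters, at 493 to 616 CPM in wt, had ratios of 2.05 to 2.70. The 3 T cell clusters had ratios of 2.64 to 3.41.

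Summed member levels were lower in db/db monocytes and neutrophils. The summed ratio was 0.75 (0.71 to 0.80) in monocytes and 0.85 (0.80 to 0.90) in neutrophils, where it was 0.97 without haemoglobin in the denominator. In monocytes 4 of 27 members with 20 UMIs passed 2-fold as lower (Gp6, Treml1, Tubb2a and Alox12) and 0 as higher, against 3.02% and 1.97% of 7811 genes. In neutrophils 1 of 26, Gp5 with 16 and 9 UMIs, passed as lower and 0 as higher, against 6.76% and 1.24% of 4100 genes. The members' median ratio was 0.73 in monocytes, against 0.96 over all genes. In neutrophils it was 0.83, against 0.85 over all genes, so the lower neutrophil level was not particular to the members. Pf4 had 167 and 121 CPM in monocytes (0.73, 0.57 to 0.93) and 492 and 381 CPM in neutrophils (0.78, 0.64 to 0.94). Neutrophil Pf4 was thus above the B cell level in both libraries. The 6 core members were Pf4, Ppbp, Gng11, Itga2b, Tubb1 and Gp9. Without barcodes that held at least 10 of their UMIs, the ratio was 1.09 in monocytes and 1.17 in neutrophils. The barcodes left out were 9 of 125 and 23 of 370 monocytes and 15 of 164 and 22 of 359 neutrophils (wt and db/db). They were picked by the members' own raw UMIs at any depth, so this removal cannot show what the lower levels rest on. NK cells had no common direction, with Ctla2a at 446 and 707 CPM (1.59, 1.26 to 1.99) and Plek at 392 and 264 CPM (0.67, 0.48 to 0.92). Over all leukocytes together the summed ratio was 1.88 (1.84 to 1.92), and 14 of 33 members passed as higher and 0 as lower, against 4.69% and 1.99% of 11648 genes, with a median ratio of 1.94 against 0.99 over all genes. That total mixes types whose shares differed, since monocytes were 2.18% of kept barcodes in wt and 6.06% in db/db.

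**Figure D3:**
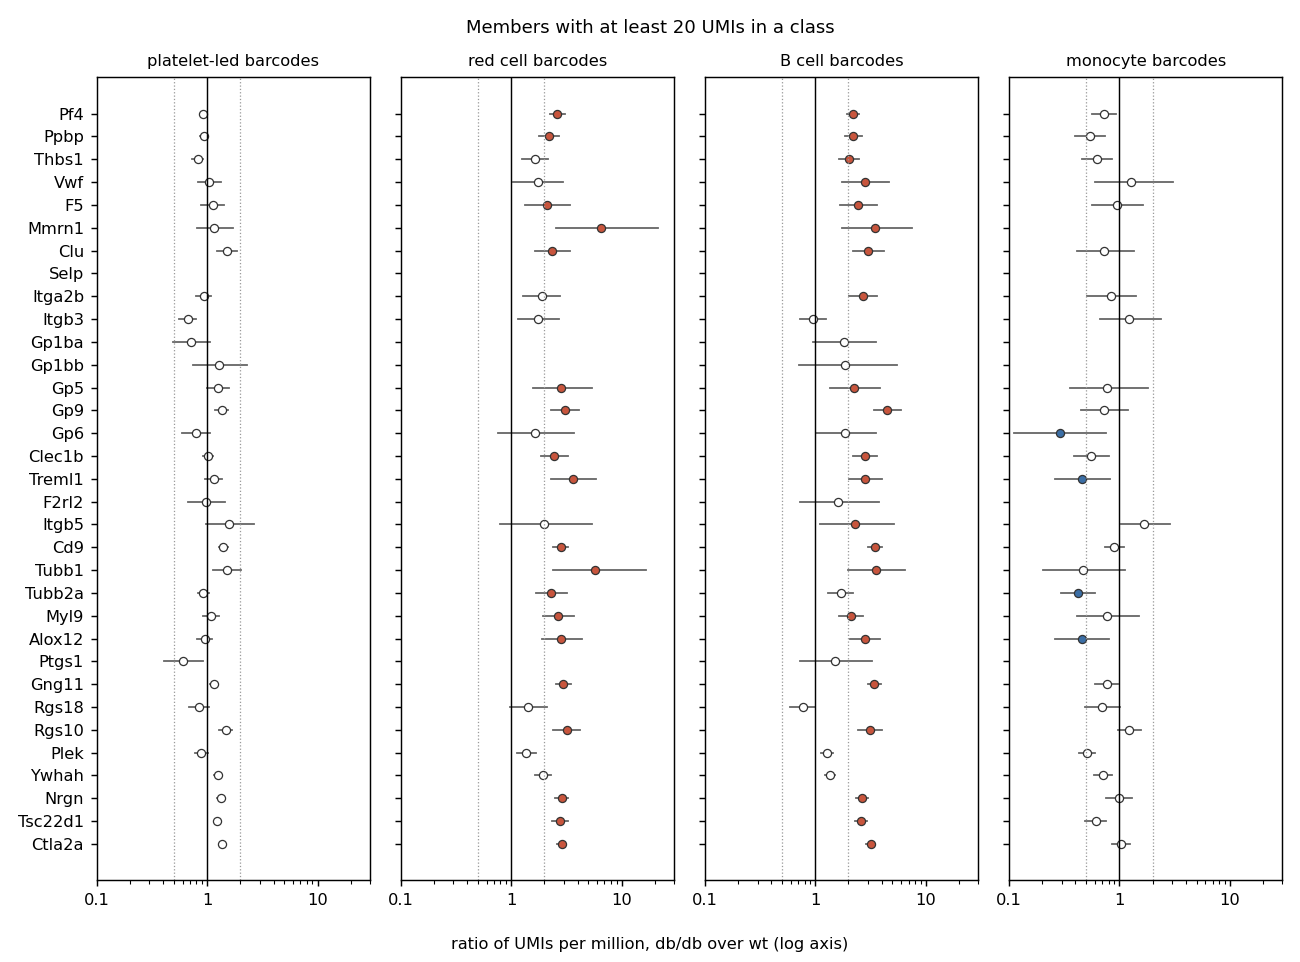
Ratio of UMIs per 1000000 UMIs, db/db over wt (log axis), for every member with at least 20 UMIs, in platelet-led, red cell, B cell and monocyte barcodes, with exact conditional binomial 95% intervals. Filled red points passed 2-fold as higher (19 in red cells and 22 in B cells), filled blue points as lower (4 in monocytes), and dotted lines mark 0.5 and 2.

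In B cells, T cells and red cell barcodes, core UMIs were found in a larger share of the db/db barcodes. At least 1 core UMI was found in 13.5% of wt B cells (12.1 to 15.0) and 34.8% of db/db B cells (32.9 to 36.8). The shares were 14.2% and 39.6% in T cells and 20.4% and 45.4% in red cell barcodes. At least 10 core UMIs were found in 0.80% and 2.11% of B cells and in 0.16% and 1.64% of red cell barcodes. All 3 of these wt red cell barcodes and 24 of the 26 in db/db were in the red cell cluster that has B cell markers. Monocytes also had at least 1 core UMI in a larger share of db/db barcodes, 32.0% (23.9 to 40.9) and 46.2% (41.1 to 51.4). Their median depths were 3624 and 4938 UMIs and their summed CPM was lower in db/db, so no order is read from these shares. NK cells (18.3%, 11.7 to 26.6, and 27.0%, 16.6 to 39.7) and neutrophils (47.0%, 39.1 to 54.9, and 53.2%, 47.9 to 58.5) had overlapping intervals. In leukocytes, 5% of the barcodes held 56.8% of the class's member UMIs in wt and 37.5% in db/db. Member UMIs were thus concentrated in few barcodes in both libraries, and less so in db/db.

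**Figure D4:**
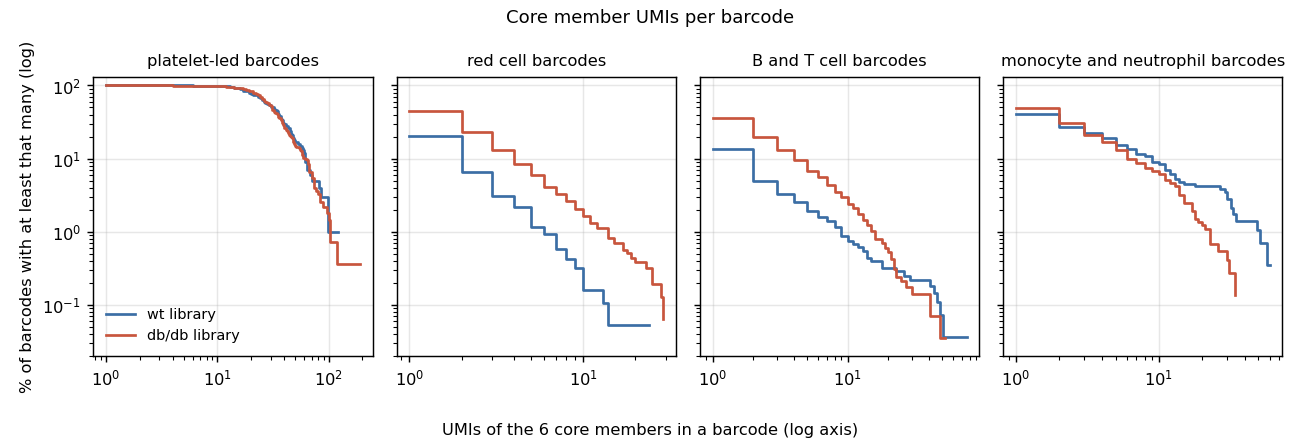
Percent of barcodes (log axis) with at least a given number of UMIs of the 6 core members (log axis), by library, in platelet-led, red cell, B and T cell, and monocyte and neutrophil barcodes. The libraries overlap in platelet-led barcodes, and db/db lies above wt at 1 UMI in red cells (45.4% against 20.4%).

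These shares depend on depth, so every barcode was also thinned to 500 UMIs. No barcode was shallower. After thinning, a UMI of Pf4 or Ppbp was found in 4.32% of wt leukocytes (3.64 to 5.08) and 8.94% of db/db leukocytes (8.04 to 9.91), a ratio of 2.07 (1.69 to 2.54), and without thinning in 10.6% and 25.4%. The thinned shares were 3.44% and 8.35% in B cells (8.53% and 22.8% without thinning) and 2.24% and 6.60% in T cells (8.07% and 25.5%), types not known to make these chemokines. B cell barcodes had a median of 2395 and 2188 UMIs, and T cell barcodes 3618 and 3146. Red cell barcodes gave 4.13% and 7.45%, at medians of 3758 and 4958 UMIs. In wt, monocytes (9.60%, 5.06 to 16.2) and neutrophils (20.7%, 14.8 to 27.8) lay above the B cell interval of 2.71 to 4.31. In db/db, monocytes (8.65%, 5.991 to 11.99) could not be told apart from B cells (7.28 to 9.53), and neutrophils (17.3%, 13.5 to 21.6) again lay above them. Platelet-led barcodes gave 100% and 99.6%.

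The make-up of the member transcripts in other classes was compared with that in platelet-led barcodes of the same library, as UMIs per 100 UMIs of the 6 core members. Of the 26 other members with at least 20 UMIs in platelet-led barcodes, 23 were within 2-fold of the platelet-led make-up in both libraries in platelet-led haemoglobin barcodes, 24 in red cell barcodes and 23 in B cells. The count was 15 in T cells, 16 in monocytes and 20 in neutrophils. A few members stood at 2-fold or more above the platelet-led make-up in both libraries. Plek did so in B cells (5.27 times in wt and 2.81 in db/db), in monocytes (8.46 and 7.02) and in neutrophils (4.84 and 6.27). Rgs10 stood at 27.4 and 6.21 times in T cells, where Itgb3 stood at 4.79 and 2.06 times. Itgb5 stood at 10.1 and 15.5 times in monocytes, joined there by F5, Cd9, Rgs18, Rgs10 and Ywhah. Cd9 stood at 2.44 and 2.52 times in neutrophils. Tubb2a went the other way there, at 0.24 and 0.48 times. NK cells held 78 and 39 core UMIs, too few for their make-up to be read closely. The source of the member UMIs in these classes was not tested.

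**Figure D5:**
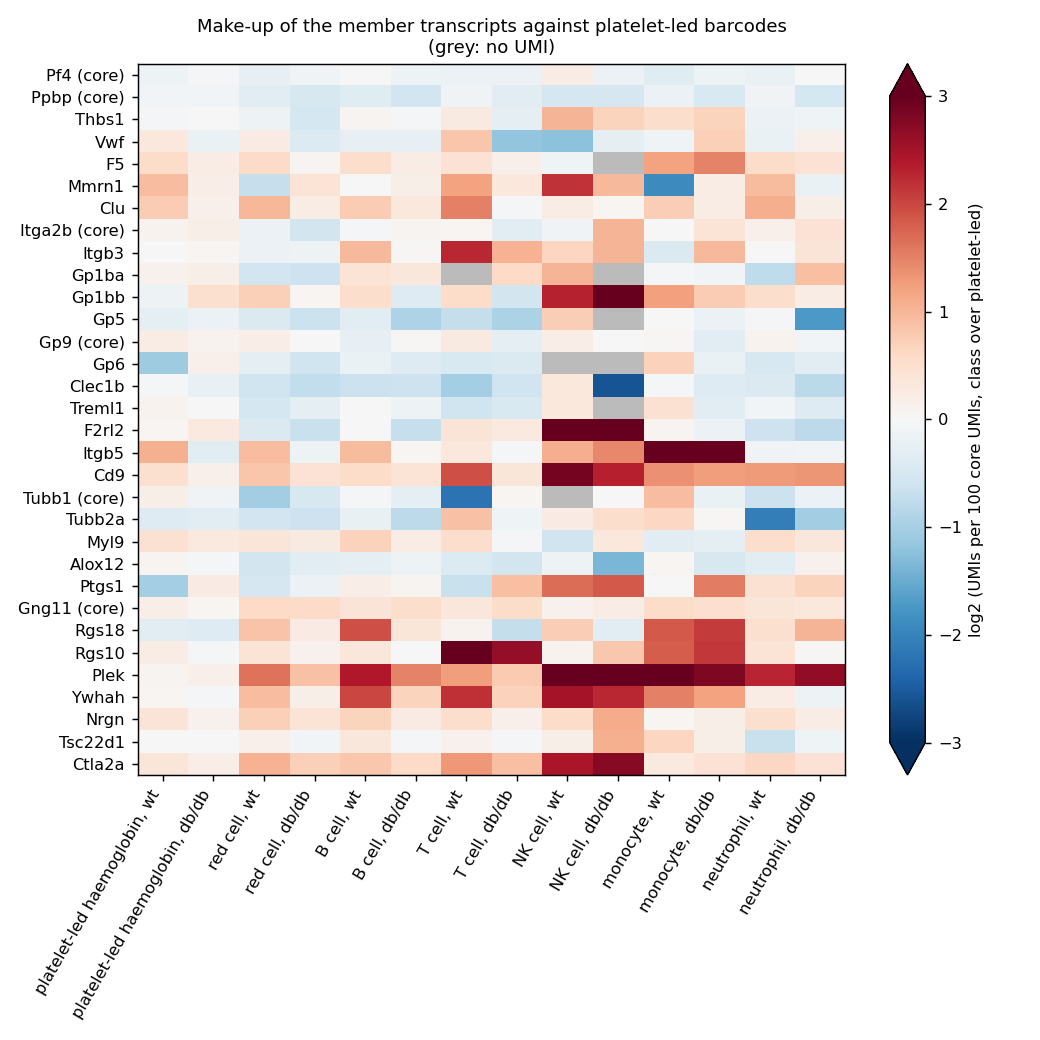
Log2 ratio of each member's UMIs per 100 core UMIs in a class to the same value in platelet-led barcodes of the same library, with members as rows, classes and libraries as columns and grey where no UMI was found. Most squares for red cells and B cells are pale, and Plek in monocytes, Rgs10 in T cells and Itgb5 in monocytes are dark red.

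Other platelet genes, a list of 38 that holds no member, were counted by the same rule. In platelet-led barcodes 31 had 20 UMIs, of which 1 passed 2-fold as higher (Tuba8, a tubulin, with 1 and 26 UMIs) and 0 as lower. Of all genes there, 2.18% passed as higher and 5.16% as lower. In red cell barcodes 8 of 25 passed as higher and 0 as lower, in B cells 11 of 27 and 0, and in T cells 5 of 16 and 0. The shares of all genes that passed as higher were 3.5%, 2.11% and 1.69%, and as lower 2.08%, 1.55% and 1.48%. In monocytes 0 of 18 passed as higher and 5 as lower, and in neutrophils 0 and 1 of 17. Over all genes, 1.97% passed as higher and 3.02% as lower in monocytes, and 1.24% and 6.76% in neutrophils. The neutrophil count was near the share of all genes and is not read as a trait of the list. P2ry12, the ADP receptor targeted by clopidogrel, had 581 and 502 CPM in platelet-led barcodes (ratio 0.86, 0.61 to 1.23) and 1.55 and 4.35 CPM in red cell barcodes (2.80, 1.42 to 5.95). Prkar2b, a regulatory subunit of protein kinase A, had 2894 and 3219 CPM in platelet-led barcodes (1.11, 0.96 to 1.29) and 6.46 and 16.0 CPM in red cell barcodes (2.47, 1.77 to 3.51). F13a1, which monocytes also express, had 22.2 and 88.6 CPM in leukocytes (3.99, 3.42 to 4.66), and within monocytes 269 and 437 CPM (1.63, 1.37 to 1.94).

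The genes found with the core members in leukocytes were sought among non-members. Leukocytes with at least 3 core UMIs (161 in wt and 539 in db/db) were compared with those without one (2675 and 2273), and the 10 genes with the largest ratio in both libraries were taken. They were Slc6a4, Plxna4, Mylk, Esam, Rhoj, Rab27b, Cald1, Ltbp1, C1qa and Tpm2. Slc6a4, the serotonin transporter, had 32 and 68 UMIs in leukocytes with core UMIs, against 2 and 3 in those without, and 1151 and 1137 CPM in platelet-led barcodes. Cald1, caldesmon, had 90 and 186 UMIs against 12 and 20, and 1684 and 2082 CPM in platelet-led barcodes. Rab27b, a GTPase of granule transport, had 42 and 56 UMIs against 8 and 6. Of the 10, 9 had at least 272.8 CPM in platelet-led barcodes of both libraries, the lowest being Rhoj in wt. C1qa, a complement component made by macrophages, was the exception, with 10 and 50 UMIs in leukocytes with core UMIs, 0 and 6 in those without, and 11.9 and 0 CPM in platelet-led barcodes. The 10 were picked by core UMIs in these leukocytes, and the share of all ranked genes at this level was not counted.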

How the data were processed

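The data were 2 droplet single-cell libraries of blood, wt and db/db, 1 per group (10x Genomics). The deposited files hold raw UMI counts for every gene in every barcode. Per the submitters' processing notes, the authors used Cell Ranger 3.0.2 and build mm10, and the annotation and cell calling settings are not given in the sources used here. The libraries hold 50540198 and 70039773 UMIs in 16700 and 19912 barcodes, with no barcode under 500 UMIs. Haemoglobin took 69.4% and 77.2% of UMIs.

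Barcodes with at least 200 genes and under 10% mt- UMIs were kept. Each was scaled to 10000 counts, and after a log transform all were clustered without the members (Python 3.11.15, scanpy 1.11.5, leidenalg 0.10.2, 2000 variable genes per library, 30 components, 15 neighbours, resolution 1). A name needed 3 list markers among 50 leading genes by fold (detected in 10% of barcodes, pseudocount 50 CPM) and no list with more markers in the top 10. A cluster of another name whose top 10 held more platelet genes, members included, than its own markers lost that name. An erythroid cluster of this kind was called platelet-led haemoglobin. That last rule was added after the data were seen. No doublet caller was run. The members and all lists were chosen with earlier results of these data known.

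For each class, raw UMIs were added up within a library. Shares carry Clopper-Pearson intervals, sums exact Poisson intervals and ratios exact conditional binomial intervals (scipy 1.17.1). The calling step was tested on simulated data. Every member is accounted for and is described in a class where it had at least 20 UMIs over both libraries. Non-member genes named are those of the list of other platelet genes, lineage markers and the 10 found with core UMIs in leukocytes (at least 50 UMIs, counts of 0 to 2 set to 3 for the ranking). Alternatives varied the filters, the clustering, the classing, the denominator, the weights and the thinning.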

Additional observations from a re-analysis of the deposited data

Results flagged for a closer look

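The summed member level of db/db over wt was above 1 in B cells (2.34) and T cells (2.61) and below 1 in monocytes (0.754) and neutrophils (0.849). The median ratio of all genes was 0.98 in B and T cells, 0.96 in monocytes and 0.85 in neutrophils, so the neutrophil value lay at the level of the whole class. In NK cells the ratio was 1.09 (0.97 to 1.24). With 1 library per genotype this difference between cell types was not tested. Without barcodes holding at least 10 core UMIs, a cut on the members' own counts, the monocyte ratio was 1.09 and the neutrophil ratio 1.17. The B cell and T cell ratios in that setting were 2.599 and 2.297. All of these ratios lay above 1 in that setting. The barcodes were removed by the members' own counts, so this setting cannot show what the lower levels or the difference between cell types rest on.

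Member transcripts were also found in barcodes that the filter removed. Barcodes under 200 genes, of which haemoglobin took 92.3% of UMIs in wt and 94.4% in db/db, had 275 CPM (wt) and 976.1 CPM (db/db) of member UMIs, a ratio of 3.55 (3.47 to 3.63). Barcodes with at least 10% mt- UMIs had 2420.0 CPM (wt) and 3166.5 CPM (db/db), a ratio of 1.31 (1.25 to 1.37).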

How the results depend on the processing

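The platelet-led share ratio stayed above 1 in all 10 alternatives tried, at 4.11 with at least 100 genes, 2.018 with mt- UMIs under 5% and 3.292 with the platelet-led haemoglobin barcodes added. The member level in platelet-led barcodes was 1.126, and was below 1 at 0.719 (at least 100 genes), 0.6957 (at least 500 genes), 0.9528 (mt- UMIs under 20%), 0.8769 (resolution 2), 0.9047 (classes by marker UMIs) and 0.7937 (haemoglobin barcodes added), and the classes then held other barcodes, for example 442 wt and 2045 db/db with at least 100 genes. It was 1.10 when members were clustered on, and 1.165 and 1.099 without haemoglobin, or without haemoglobin, mt- genes and Gm42418, in the denominator.

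The red cell ratio stayed above 1 in all 13 alternatives, none of which took back the platelet-led haemoglobin barcodes under the main clustering. It was 3.009 and 2.657 with at least 100 and 500 genes, 1.987 with mt- UMIs under 20%, 2.393 when members were clustered on, 3.289 at resolution 2, 4.421 with classes by marker UMIs, 2.276 without barcodes of several lineages, 2.35 and 2.121 with the smaller denominators, 1.922 with equal weight per barcode and 2.371 without the cluster that has B cell markers. The leukocyte ratio stayed above 1 in all 14, at 1.833 with at least 100 genes, 1.786 and 1.801 with mt- UMIs under 5% and 20%, 1.738 when members were clustered on, 2.202 with classes by marker UMIs, 2.23 without barcodes of several lineages, 2.011 with equal weights, 2.303 in B, T and NK cells alone and 2.17 without barcodes of at least 10 core UMIs. The thinned Pf4 or Ppbp ratio was 2.682 at 1000 UMIs. Causes were not tested.

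The monocyte ratio was above 1 with classes by marker UMIs (1.232) and without barcodes of at least 10 core UMIs (1.089). The neutrophil ratio was above 1 in those settings (1.167 and 1.17) and without barcodes of several lineages (1.05). B and T cell ratios stayed above 1 in all 12 alternatives.

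Members past 2-fold as higher are given here out of those with 20 UMIs, whose number changed with the setting. In red cells they were 19 of 28. They were 31 of 32 at resolution 2, 30 of 30 with classes by marker UMIs and 11 of 23 with mt- UMIs under 20%. In leukocytes they were 14 of 33. They were 22 of 33 with classes by marker UMIs and 22 of 32 without barcodes of several lineages. Without barcodes of at least 10 core UMIs they were 25 of 33. With at least 100 genes they were 9 of 33, and with mt- UMIs under 5% 7 of 33. In B cells they were 22 of 32, and 6 of 21 when members were clustered on. In platelet-led barcodes up to 4 of 33 passed as lower (at least 100 genes). In monocytes those lower were 4 of 27, and from 0 of 23 to 6 of 22 over the alternatives. In neutrophils they were 1 of 26, and from 0 of 23 to 5 of 28. The share of all genes that passed was not counted in the alternatives.

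The alternatives that added or removed clusters, core-rich barcodes, other leukocyte types or the 11 kept barcodes found in both libraries were chosen after seeing the data, and the last changed none of the 5 main results in direction. No paired analysis was possible because each group was 1 library. Classes of few barcodes, such as 63 db/db NK cells, and members under 20 UMIs are limited by depth.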

Other observations

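The 395 wt and 37 db/db unnamed barcodes led by Gm42418 had 1106 and 3723 CPM of member UMIs, a ratio of 3.37 (2.75 to 4.09). The 19 kidney proximal tubule-like barcodes of the db/db library had 3947 CPM (3193 to 4825). Platelet-led barcodes of db/db held all 9 kidney proximal tubule markers at a summed 506 CPM, and those of wt held 2 of the 9 at 35.6 CPM.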
